A study of Mus musculus with 144 samples.

Results

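The 6 arrays described here hold liver RNA of SM/J males, an inbred mouse strain, and were chosen by their titles: 3 carry the label of an atherogenic diet and 3 the label of regular chow. They are 6 of the arrays of a survey of 12 strains, both sexes and both diets, with 3 mice and 3 arrays in each of 48 groups. The atherogenic diet held 30% fat and cholic acid, a bile acid given to aid the uptake of fat, and the chow held 6% fat; no other agent was named, and no allele beyond those of the inbred strains, such as lpr in MRL/MpJ-Tnfrsf6lpr/J. SM/J and 9 other strains (C57BL/6J, 129S1/SvImJ, BALB/cJ, A/J, DBA/2J, C3H/HeJ, NZB/BINJ, I/LnJ and MRL/MpJ-Tnfrsf6lpr/J) were harvested at 11 to 13 weeks of age, and CAST/EiJ and PERA/Ei after 50 weeks. The diet labels of the SM/J males may have been exchanged, so every diet difference below is given as labelled, the arrays labelled atherogenic minus the arrays labelled chow, and its direction is set gene by gene against the males of the 9 other strains of the same age.

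Cholesterol that reaches the liver with the diet is sensed in more than one way. When sterols are plentiful, the membrane-bound SREBP2 transcription factor is held back and the genes of cholesterol synthesis are transcribed less, while oxysterols activate the nuclear receptor LXR, which raises genes of sterol export such as Abcg5 and Abcg8. Cholic acid in such diets also represses bile acid synthesis through the nuclear receptor FXR, and the diet is known for bringing macrophages, inflammation and matrix deposition to the mouse liver.

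The arrays were read as log2 intensities per gene, 18193 genes in all, with array medians of 5.0 to 5.09 over the whole survey and 5.03 to 5.06 over the 6 SM/J male arrays. No 2 arrays held identical values. Nothing in the labels named a batch, a scan or an extraction. Xist, the RNA that silences one X chromosome, lay between 5.64 and 6.16 in the 6 arrays and averaged 11.57 and 11.5 in SM/J females labelled chow and atherogenic. Eif2s3y, a translation factor gene of the Y chromosome, lay between 8.59 and 8.89 in the 6 arrays, against 3.67 and 3.62 in those females. The strain was read from probe sets, of Ppp6r3 and Tmem19, on which SM/J females stood at least 1 log2 unit apart from all females of the other 9 strains. All 6 male arrays lay on the SM/J side for 3 of 3 such probe sets, and none of the 54 males of the other strains did for any. With a gap of 0.5, the 3 arrays labelled chow each lay on the SM/J side for 14 of 17 probe sets and the arrays labelled atherogenic for 16, 17 and 17, against 0 to 1 in the other males. Albumin and the other hepatocyte markers were at full level, with a list mean of 12.54 to 12.75 in the 6 arrays. These readings went with the sex and strain on the labels. With the gap of 0.5 the strain reading also differed between the 2 diet labels, so it is not free of the diet label. That set includes Lyz1, a gene named below for its difference between the labels. The source of the split was not tested.

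The 2 groups of SM/J males differed in 1412 genes (limma, Benjamini-Hochberg adjusted p under 0.05, 7.76% of the genes tested), of which 474 were higher (2.61%) and 938 lower (5.16%) in the arrays labelled atherogenic. A change of at least 2-fold was reached by 38 of the higher and 250 of the lower genes. In the males of the 9 other strains the diet changed 7520 genes (41.3%), 3129 upward (17.2%) and 4391 downward (24.1%). The split of the calls depended on the scaling: after median centring of the arrays, 48% of the SM/J male calls were upward in place of 33.6%, and 22.5% of those of the other males in place of 41.6%. Leaving out single arrays moved the SM/J count from 754 (without the third array labelled chow) to 1372, with 901 without the first array labelled atherogenic and 926 without the first labelled chow.

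Gene by gene, the labelled change in SM/J males ran against that of the other males. Of the 1265 genes called in both, 1264 had opposite signs. The 1 gene with a common sign, Mrgpre, an orphan receptor gene named because the count was so small, changed by 0.25 in SM/J males (SE 0.084, adjusted p = 0.0492) and 0.10 in the others, and its call was lost without any 1 of the arrays other than the first labelled chow (0.18 to 0.27). Of the 147 genes called in SM/J males alone, 130 ran opposite to the other males. Of all 7520 genes called in the other males, 6765 (90%) had the opposite sign in SM/J males, against 78.4% of all genes measured. The difference between both changes passed the threshold for 4689 genes (25.8%), 2452 higher (13.5%) and 2237 lower (12.3%) in SM/J males. This test measures the spread of arrays within groups and not the spread between strains. A call therefore does not place SM/J males outside the range of the other strains. Which direction held the majority was not settled: the higher share of 52.3% became 71.9% with median centring and 41.1% at adjusted p under 0.01. The count of higher genes became 1598 (46.4%) without the third array labelled chow and 1569 (44.6%) without the first labelled atherogenic.

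**Figure D1:**
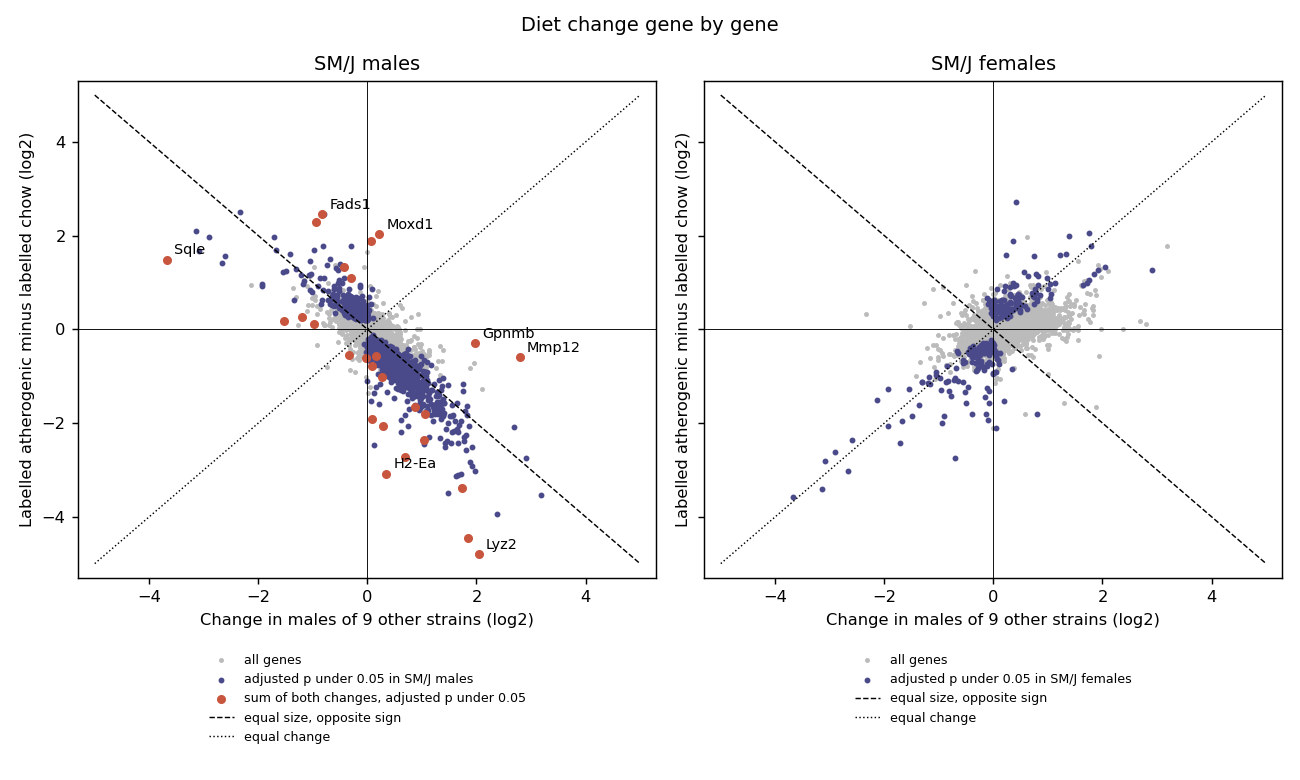
The diet change of each of 18193 genes (log2, labelled atherogenic minus labelled chow) in SM/J males (left) and SM/J females (right) is plotted against the mean change in males of 9 other strains; coloured points passed the tests named in the keys, the dashed line marks equal size with opposite sign and the dotted line equal change. The male cloud follows the dashed line (r = -0.82). The female changes share the sign of the dotted line (r = 0.45) but are smaller, with a median ratio of 0.45 to the other males over the 258 genes of the text.

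Among the strains, the SM/J males stood alone in sign. Across genes, their change correlated with the mean of the 9 other strains at r = -0.82 (Spearman rho -0.67, n = 18193 genes, which are not independent of each other), and r stayed between -0.82 and -0.77 without any 1 of the 6 arrays. In the other 9 strains, set against the remaining 8, r ran from 0.23 in DBA/2J to 0.85 in A/J. Of 575 genes that changed at least 1.5-fold on average in the other males, 9 (1.57%) had the same sign in SM/J males. The matching share was 98.3% in C57BL/6J, 94% in 129S1/SvImJ, 84% in MRL/MpJ-Tnfrsf6lpr/J and 52.4% in DBA/2J, where 346 of 660 genes shared the sign. DBA/2J males had few changes of any kind (232 genes called), whereas SM/J males had 1412, so the 2 strains with low shares differed in how much changed as well as in direction. SM/J females shared the sign of the other males in 466 of the 575 genes (81%). The older CAST/EiJ and PERA/Ei males, which entered neither the choice of genes nor the reference, shared it in 89.7% and 96.2%.

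A set of 258 genes served as a yardstick. They were chosen on the diet change in the 54 males of the 9 other strains (adjusted p under 0.05, at least 1.5-fold, 1 direction in all 9 strains), so their change in those males, 188 upward and 70 downward, is fixed by the choice. SM/J arrays entered it through the probe set kept per gene and the shared estimate of the spread; a fit of those 54 males alone, added after seeing the data, chose 258 genes, and all 258 were shared. In SM/J males 257 of the 258 ran the opposite way. The call threshold was passed by 188 of them, all opposite, against 7.76% of all genes, and the 3 arrays of each label did not overlap for 214, against 30.9% of all genes. The exception was Lpin1, a phosphatidate phosphatase of lipid synthesis, with a log2 difference of -0.34 in SM/J males (SE 0.38, adjusted p = 0.655) and -0.93 in the others. The median ratio of the SM/J male change to that of the other males was -0.99, with quartiles of -1.27 and -0.73. Genes that rose in the other males, by a median of 0.82, had a median of -0.89 in SM/J males, and genes that fell there, by a median of -0.96, had 0.81. In SM/J females 231 of the 258 shared the sign of the other males. The threshold was passed there by 62, all with that sign, against 1.46% of all genes, and the median ratio was 0.45.

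The diet score of an array is the mean log2 level of the 188 rising genes minus that of the 70 falling genes. The 3 SM/J males labelled chow scored 0.36, -0.16 and 0.44 (mean 0.21, SD 0.32), and the 3 labelled atherogenic -1.70, -1.65 and -1.55 (mean -1.63, SD 0.07). The arrays labelled chow were thus the high ones, without overlap. Across the 27 other males on chow the score ran from -2.64 to -1.73 with a median of -2.22, and across the 27 on the atherogenic diet from -0.93 to 1.09 with a median of -0.2. All 3 SM/J males labelled chow lay inside the range of the other males on the atherogenic diet and outside that on chow. The 3 labelled atherogenic lay just above the range on chow and below the range on the atherogenic diet. SM/J females scored -1.93 on chow (SD 0.12, n = 3) and -0.59 on the atherogenic diet (SD 0.15, n = 3). The labelled change was -1.85 in SM/J males, 1.34 in SM/J females, and 1.22 to 3.21 in the males and 1.07 to 2.89 in the females of the 9 other strains. CAST/EiJ and PERA/Ei males, which the choice of genes did not use, changed by 1.62 and 1.64. Without any 1 of the 6 arrays the SM/J male change stayed between -2.03 and -1.73.

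**Figure D2:**
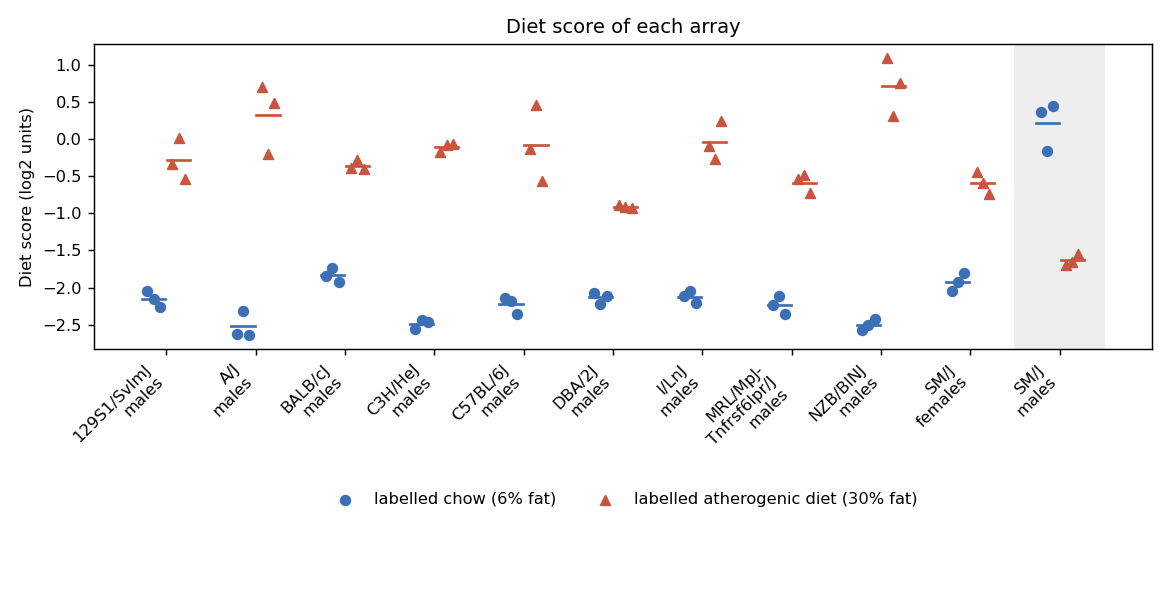
Diet score (log2 units) of each array in males of 9 strains, SM/J females and, shaded, SM/J males, with circles for arrays labelled chow, triangles for arrays labelled atherogenic and a bar at each mean of 3. In the shaded column the circles lie between -0.16 and 0.44 and the triangles between -1.70 and -1.55; in the other columns the triangles are the higher ones.

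Each group was also set against both diets without use of its own label. For SM/J males on a given diet a reference was built from SM/J females on that diet plus the mean difference between males and females of the 9 other strains on it. The arrays labelled chow differed from the chow reference in 2510 genes (13.8%) and from the atherogenic reference in 481 (2.64%). The 2510 split into 1290 higher (7.09%) and 1220 lower (6.71%), so 51.4% were higher, or 34.9% with centred arrays. The arrays labelled atherogenic differed from the chow reference in 286 genes (1.57%) and from the atherogenic reference in 410 (2.25%). So the arrays labelled chow were nearer to the reference of the other label, by a wide margin, and the arrays labelled atherogenic by a small one. Single arrays shifted these shares: the 2.64% became 0.792% without the third array labelled chow, 1.28% without the first and 1.7% without the MRL/MpJ-Tnfrsf6lpr/J arrays, and the 1.57% became 0.792% without the second array labelled atherogenic and 0.846% without the last. With arrays weighted by quality (0.81 to 2.55 for these 6) the arrays labelled chow departed from the chow reference in 16.5% of genes and from the atherogenic reference in 15.5%, so that margin nearly closed. The references share the females and the other strains, so the 4 counts are not independent.

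Cholesterol synthesis genes were higher in the arrays labelled atherogenic. Of 17 genes measured of 20 listed, 12 rose and 0 fell in SM/J males (2.61% and 5.16% of all genes), with a median change of 1.23 against 0.04 for all genes. In the other males 0 rose and 17 fell, with a median of -1.68, and in SM/J females 0 rose and 13 fell (0.676% and 0.781% of all genes), with a median of -1.95. The difference from the other males passed the threshold for 17 of 17. The list mean was 7.49, 7.66 and 7.62 in the arrays labelled chow and 8.83, 8.99 and 8.41 in those labelled atherogenic. The former lay next to the SM/J females on the atherogenic diet (7.67 to 7.86), while the latter lay below the SM/J females on chow (9.32 to 10.01). The other males lay at 8.73 to 10.6 on chow and 7.5 to 8.74 on the atherogenic diet. The third array labelled atherogenic (8.41) thus lay in the atherogenic range of the other males and the rest of its group in their chow range. Without single arrays the count of higher genes stayed between 10 and 12.

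The promoters of 3 of these genes are shown because the SREBP factors act on this pathway through a sterol regulatory element close to a CCAAT box, which binds NF-Y. Each runs from 250 bases before to 50 after the start of transcription as RefSeq has it on GRCm38.p6, with capitals for the letters TCACNCCAC and CCAAT on either strand (the second reads ATTGG on the opposite strand). Hmgcs1 lies at chr13:119690101-119690400 on the plus strand, Cyp51 at chr5:4104648-4104947 on the minus strand and Idi1 at chr13:8885356-8885655 on the plus strand.
Hmgcs1: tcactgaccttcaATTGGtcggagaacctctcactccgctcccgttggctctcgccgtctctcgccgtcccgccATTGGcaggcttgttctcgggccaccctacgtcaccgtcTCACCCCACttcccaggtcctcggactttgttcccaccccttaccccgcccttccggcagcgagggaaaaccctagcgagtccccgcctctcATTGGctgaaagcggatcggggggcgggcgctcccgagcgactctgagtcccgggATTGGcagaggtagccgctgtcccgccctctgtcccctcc
Cyp51: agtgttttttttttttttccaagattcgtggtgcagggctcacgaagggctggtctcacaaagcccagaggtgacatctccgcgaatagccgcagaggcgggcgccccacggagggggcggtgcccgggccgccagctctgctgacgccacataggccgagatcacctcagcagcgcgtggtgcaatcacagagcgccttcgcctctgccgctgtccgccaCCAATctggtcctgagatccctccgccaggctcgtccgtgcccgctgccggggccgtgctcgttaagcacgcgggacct
Idi1: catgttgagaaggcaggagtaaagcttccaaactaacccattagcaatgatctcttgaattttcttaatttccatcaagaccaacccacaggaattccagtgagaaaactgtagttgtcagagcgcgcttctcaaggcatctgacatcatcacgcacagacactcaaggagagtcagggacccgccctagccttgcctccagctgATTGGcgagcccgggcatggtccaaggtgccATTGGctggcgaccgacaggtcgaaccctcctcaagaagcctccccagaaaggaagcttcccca
Hmgcs1 carries 1 TCACNCCAC, at position -137 from the start site, and 4 CCAAT; Cyp51 carries 1 CCAAT and Idi1 2. Of the 14 list genes with a promoter in the table, 1 holds TCACNCCAC and 14 hold CCAAT, against 1.44% and 41.1% of 27025 genes. Such a match is a match of letters only. Sqle, Fdps and Fdft1 are not among these promoters.

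Hmgcs1, the cytosolic synthase that opens the mevalonate pathway, read 8.58, 8.42 and 8.54 in the SM/J males labelled chow and 9.56, 9.78 and 9.10 in those labelled atherogenic. All 3 of the latter were higher, and the change of 0.97 (SE 0.32, limma adjusted p = 0.0458) stood against -1.94 in the other males. Its call was lost without any 1 array other than the third labelled atherogenic (0.82 to 1.0). Idi1, which isomerises isopentenyl diphosphate, read 7.0, 7.42 and 7.77 against 9.16, 9.44 and 8.58, a rise of 1.66 (SE 0.37, adjusted p = 0.00112) where the other males fell by 3.08. Fdps, the farnesyl diphosphate synthase, read 7.08, 7.43 and 7.32 against 9.67, 9.46 and 8.61, a rise of 1.97 (SE 0.40, adjusted p = 0.000274). In each of these the third array labelled atherogenic was the lowest of its group and the groups did not overlap.

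Sqle, the squalene epoxidase, read 4.95, 4.92 and 5.06 in the arrays labelled chow and 6.52, 7.59 and 5.29 in those labelled atherogenic. The third of the latter lay close to the chow-labelled arrays, and the rise of 1.49 (SE 0.39, adjusted p = 0.00641) was lost without the second array labelled atherogenic (0.93, adjusted p = 0.189). In the other males Sqle fell by 3.67, from 1.59 to 4.82 by strain, and its change in SM/J females was -3.58. Cyp51, the lanosterol demethylase, read 6.17, 6.70 and 6.44 against 8.68, 8.81 and 8.14, 4.31-fold higher in the arrays labelled atherogenic (log2 2.11, SE 0.30, adjusted p = 2.38e-07). Its change was -3.14 in the other males and -3.40 in SM/J females. Dhcr7, the last reductase of the pathway, read 6.64, 6.66 and 6.41 against 8.65, 8.72 and 8.24, a rise of 1.97 (SE 0.29, adjusted p = 3.49e-07) where the other males fell by 1.71. The groups were far apart for both genes.

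Of the other members, Tm7sf2 (1.69), Nsdhl (1.57), Msmo1 (1.42), Pmvk (1.23), Fdft1 (0.96) and Sc5d (0.84) were higher in the arrays labelled atherogenic, and all 6 fell in the other males. Lss (0.70, adjusted p = 0.0686), Mvk (0.43), Ebp (0.26), Mvd (0.25) and Hsd17b7 (0.11) did not pass the threshold in SM/J males. Among 9 genes of cholesterol regulation and uptake measured of 12 listed, 3 rose and 3 fell, against 2.61% and 5.16% of all genes. Stard4, a sterol carrier, rose by 1.04 (adjusted p = 0.00129) and Insig1, the anchor that retains SREBP, by 1.16 (adjusted p = 0.0246), the latter lost without the first or last array labelled chow or the second or last labelled atherogenic (1.01 to 1.16). Scap, the SREBP escort, rose by 0.47. Scarb1, the HDL receptor, changed by -0.52 (adjusted p = 0.0194), lost without the first or last array labelled chow or the first labelled atherogenic (-0.35 to -0.49), and its change in the other males was 0.67. Abca1, the cholesterol exporter, changed by -0.42 and Npc2, a lysosomal sterol carrier, by -0.53, against 0.53 and 0.30 in the other males. Without the last array labelled chow or the first labelled atherogenic, the list held 1 fall.

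LXR targets moved the other way. Of 10 measured, 7 were lower and 0 higher in the arrays labelled atherogenic, against 5.16% and 2.61% of all genes, with a median of -1.03. In the other males 9 rose, against 17.2% of all genes (median 1.09). In SM/J females 7 rose, against 0.676% of all genes (median 0.99). The list mean was 10.56, 10.55 and 10.64 in the arrays labelled chow and 9.5, 9.61 and 9.59 in those labelled atherogenic. SM/J females on the atherogenic diet lay at 10.55 to 10.62 and on chow at 9.52 to 9.61, so each male group lay at the level of the females of the opposite label. Abcg5, a subunit of the sterol export pump, read 11.51, 11.72 and 11.67 against 9.79, 9.68 and 10.18, 3.36-fold lower in the arrays labelled atherogenic (log2 -1.75, SE 0.15, adjusted p = 2.24e-16). The change was 1.78 in the other males, between 1.15 and 2.28 by strain, and 1.77 in SM/J females. Its partner Abcg8 read 10.35, 10.50 and 10.39 against 8.73, 8.64 and 8.96 (log2 -1.64, adjusted p = 1.24e-11). Both groups were tight and apart for these exporters.

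Abcg1, which loads cholesterol onto HDL, read 8.53, 8.68 and 8.80 in the arrays labelled chow and 6.84, 6.88 and 6.43 in those labelled atherogenic (log2 -1.95, SE 0.20, adjusted p = 1.27e-12). Lpl, the lipoprotein lipase, read 12.03, 11.69 and 11.99 against 10.45, 10.67 and 10.64 (log2 -1.32, SE 0.27, adjusted p = 0.000304). In the other males these genes changed by 1.72 and 1.74. Pltp (-1.21), Mylip (-0.86) and Scd1 (-0.81, adjusted p = 0.0273) were lower too, whereas Srebf1, the regulator of fatty acid synthesis, was at -0.49 (adjusted p = 0.236) against 1.13 in the other males.

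Lipid genes beyond these lists moved less as groups. Of 18 fatty acid synthesis genes, 2 rose and 1 fell in SM/J males (median 0.24; 2.61% and 5.16% of all genes), and in the other males 3 rose and 8 fell (median -0.11; 17.2% and 24.1% of all genes). The 1 fall in SM/J males and the 3 rises in the other males lay near those shares of all genes. Scd2, a stearoyl-CoA desaturase, read 7.03, 6.72 and 7.37 in the arrays labelled chow and 4.35, 4.70 and 4.53 in those labelled atherogenic, 5.71-fold lower (log2 -2.51, SE 0.22, adjusted p = 1.63e-15), against 1.93 in the other males. Other Scd2 probe sets gave smaller changes of -0.54 and -0.39. The same held for further sets of some other named genes, with -0.79 for Clec4e, -0.39 for Abcg1, -0.99 for Col3a1 and -0.13 for Pdgfrb. For Cyp51 they gave 1.76 and 0.35, and for Fdps -0.07. Further sets of other genes gave larger changes, with 3.57 for Idi1, 2.19 for Gsta3 and -1.64 for Lpl. Fads1, a desaturase that makes arachidonic acid, read 7.90, 8.61 and 8.33 against 10.77, 10.80 and 10.62, a rise without overlap (log2 2.45, SE 0.18, adjusted p = 2.54e-19), against -0.83 in the other males and -1.10 in SM/J females. Fads2 rose by 0.61 (adjusted p = 0.0182).

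Among 18 fatty acid oxidation genes of 22 listed, 4 rose and 1 fell, against 2 and 11 in the other males. Beside the same shares of all genes, the 1 fall was near the background and the 2 rises were below it. The 4 became 0 without the last array labelled chow, 3 without the second, 1 without any other single array, and 2 after quantile normalization. Cyp4a14, a PPARA target, read 9.62, 10.57 and 6.62 against 10.44, 11.79 and 12.12, with the third array labelled chow far below the rest. Its rise of 2.51 (adjusted p = 0.00449) was lost without that array (1.35, adjusted p = 0.291) and without the third labelled atherogenic (2.18, adjusted p = 0.0511). Pdk4, a kinase that shuts off pyruvate oxidation in fasting, read 6.75, 9.39 and 5.77 against 4.55, 4.81 and 5.12 (log2 -2.47, adjusted p = 0.00183), against 0.13 in the other males; the second array labelled chow was the highest. Of 18 lipid droplet and storage genes 0 rose and 3 fell, against 2.61% and 5.16% of all genes. Among the 3 were Fabp4, a fatty acid binding protein, at -1.81 against 1.05 in the other males, and Apoa4, an apolipoprotein, at -1.04 against 1.39.

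Bile acid genes gave few calls. None of the 12 synthesis genes passed limma's threshold in SM/J males, where 7.76% of all genes did (5 of the 12 rose at an unadjusted p under 0.05). In the other males 1 rose and 6 fell, against 17.2% and 24.1% of all genes. The difference from the other males passed for 7, all higher in SM/J males, against 25.8% of all genes. Cyp8b1, the sterol hydroxylase that cholic acid synthesis requires, read 11.23, 11.19 and 10.55 in the arrays labelled chow and 11.99, 11.83 and 11.99 in those labelled atherogenic. The groups did not overlap but the change of 0.95 did not pass (adjusted p = 0.105); it was -2.13 in the other males and -1.51 in SM/J females (adjusted p = 0.0115). Cyp7a1, the rate-limiting enzyme of the pathway, was at 0.35 (adjusted p = 0.782) against 0.12. Of 15 genes of sensing and transport 2 rose, against 2.61% of all genes: Nr1h4, which encodes FXR, by 0.42 and Slc10a1, the uptake carrier, by 0.32 (both adjusted p = 0.0327). Without the first or last array labelled chow or the first labelled atherogenic 0 rose. The FXR target Nr0b2 was at 0.31 (adjusted p = 0.627) against 0.52 in the other males.

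**Figure D3:**
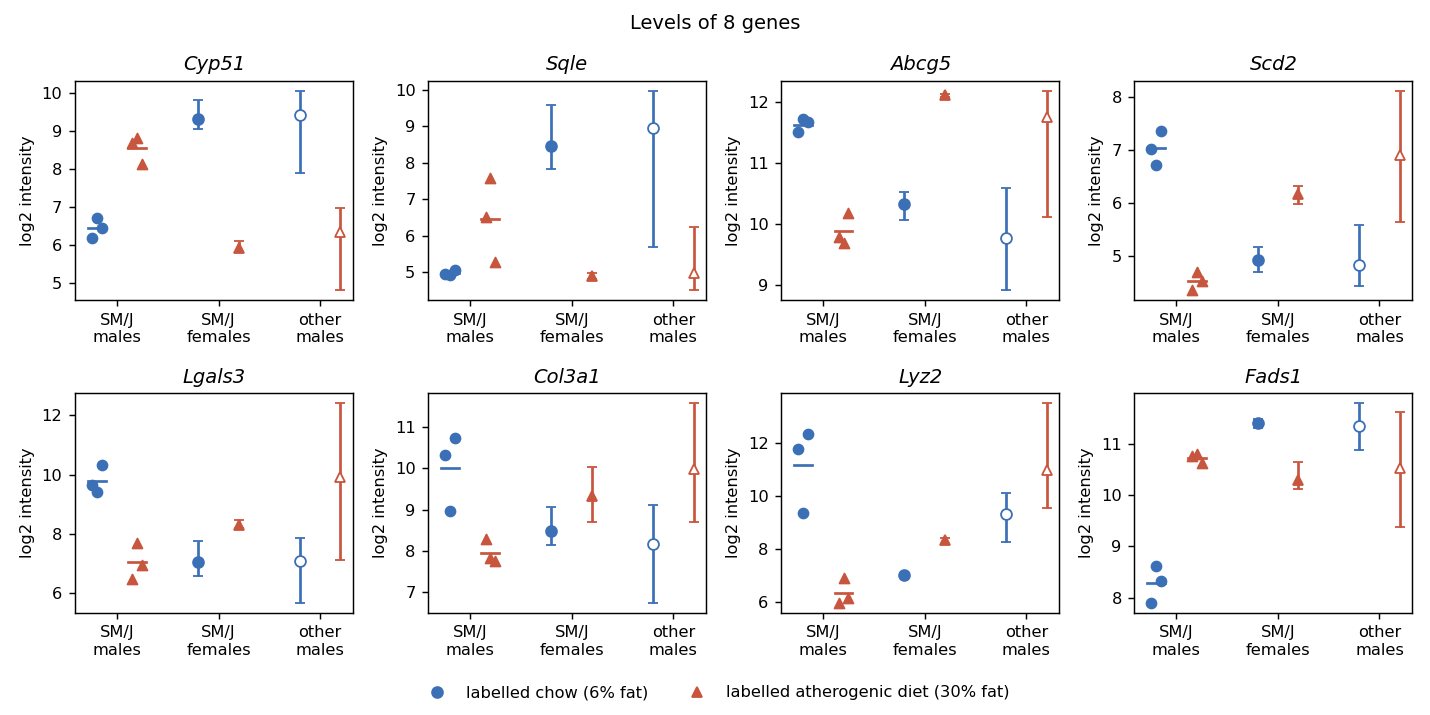
Levels (log2 intensity) of 8 genes in SM/J males (points for the 3 arrays and a bar at their mean), SM/J females (mean of 3 with lowest and highest) and males of 9 other strains (median of 27 with lowest and highest), circles for arrays labelled chow and triangles for arrays labelled atherogenic. In SM/J males Cyp51, Sqle and Fads1 are higher and Abcg5, Scd2, Lgals3, Col3a1 and Lyz2 lower in the arrays labelled atherogenic, the reverse of the order in both other columns.

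Macrophage genes were lower in the arrays labelled atherogenic. Of 20 markers, 12 fell and 0 rose in SM/J males, against 5.16% and 2.61% of all genes, with a median of -1.13. In the other males 18 rose and 1 fell, against 17.2% and 24.1% of all genes, with a median of 1.10. SM/J females had 3 that rose and 1 that fell, against 0.676% and 0.781% of all genes, with a median of 0.08. The list mean was 8.76, 8.05 and 9.01 in the arrays labelled chow and 6.93, 7.88 and 7.3 in those labelled atherogenic, and the second array of each group was the one nearest to the other group. On chow the other males lay at 6.8 to 7.91 and on the atherogenic diet at 7.5 to 9.73. Without single arrays the count of lower markers ran from 9 to 14. In whole liver, fewer cells of a type and less RNA per cell cannot be told apart.

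Lgals3, the lectin of activated macrophages, read 9.64, 9.42 and 10.31 against 6.47, 7.69 and 6.95, 6.76-fold lower in the arrays labelled atherogenic (log2 -2.76, SE 0.35, adjusted p = 1.14e-08), against 2.91 in the other males. Lyz2, lysozyme, read 11.78, 9.38 and 12.34 against 5.99, 6.93 and 6.17 (log2 -4.80, SE 0.31, adjusted p = 3.75e-22). The second array labelled chow was the lowest of its group for Lyz2, and the groups did not overlap. Cd5l, secreted by resident macrophages, read 11.33, 11.22 and 11.58 against 9.11, 10.52 and 9.79 (log2 -1.57, adjusted p = 2.05e-07). Cd14 (-2.58), Mpeg1 (-1.95), Ctss (-1.85), Timd4 (-1.72), Marco (-1.69), Cd68 (-1.62), Adgre1 (-1.14), Csf1r (-1.12) and Msr1 (-0.67) were lower as well. Clec4f, a marker of Kupffer cells, was at -0.30 (adjusted p = 0.389) and Cd163, a scavenger receptor that fell in the other males, at 0.89 (adjusted p = 0.0978).

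Stellate cell and matrix genes shared the direction of the macrophage genes by label, but not their order among the arrays labelled atherogenic. Of 18 measured, 13 were lower and 0 higher in the arrays labelled atherogenic, against 5.16% and 2.61% of all genes (median -1.04). In the other males 17 rose, against 17.2% of all genes (median 0.76). Limma called 0 in SM/J females, against 1.46% of all genes (5 at an unadjusted p under 0.05, median 0.17). The list mean was 8.12, 7.68 and 8.15 in the arrays labelled chow and 7.35, 6.88 and 6.81 in those labelled atherogenic. Col3a1, a fibrillar collagen, read 10.33, 8.97 and 10.72 against 8.29, 7.82 and 7.75, 4.15-fold lower (log2 -2.05, SE 0.34, adjusted p = 8.38e-06), against 1.87 in the other males. Col1a1 read 7.49, 6.27 and 7.51 against 5.97, 6.05 and 6.06 (log2 -1.07). The second array labelled chow was the lowest of its group for both collagens but above the other label. Col1a2 (-1.63), Pdgfrb (-1.47) and Sparc (-1.09) were lower too.

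Of the endothelial markers 6 of 12 were lower and 0 higher, against 5.16% and 2.61% of all genes. Among the 6 were Lyve1 (-1.08), the sinusoidal hyaluronan receptor, and Pecam1 (-0.82). In the other males 7 rose, against 17.2% of all genes. Markers of the other cell types were largely without calls in SM/J males, on the 1 probe set kept per gene, where 7.76% of all genes were called. Of 15 hepatocyte, 7 cholangiocyte, 3 erythroid and 3 adipocyte markers 0 passed limma's threshold, with 1, 0, 0 and 0 at an unadjusted p under 0.05. Another probe set of the cholangiocyte marker Tspan8 changed by -0.73 (limma adjusted p = 0.000123), while its further sets gave -0.06 to 0.04. The lymphocyte list had 1 lower of 13 (Ccl5, -1.83) and the neutrophil list 1 lower of 9 (S100a8, -2.18). With 5.16% of all genes lower, 1 call in so short a list is near that share. The pancreas list had 1 higher of 5 (Cela1, 0.80), where 2.61% of all genes were higher. The macrophage, matrix and endothelial list means moved together with the diet label in these 6 arrays, and their part in the changes of other genes was not tested.

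Inflammatory genes varied among the mice. Of 20 chemokine and adhesion genes, 11 were lower and 0 higher, against 5.16% and 2.61% of all genes (median -0.91). In the other males 17 rose, against 17.2% of all genes (median 0.83). The count of lower genes was 5 without the last array labelled chow or the first labelled atherogenic and 7 without the first labelled chow. Tnfaip3 (-1.91), the feedback inhibitor of NF-kappaB, the chemokine Ccl6 (-1.63) and the adhesion molecules Icam1 (-1.30) and Vcam1 (-1.20) were lower. The interferon-induced chemokines were less firm: Cxcl9 (-2.51) lost its call without the first array labelled atherogenic (-1.76, adjusted p = 0.102) and Cxcl10 (-1.66) without the first or last array of either label (-1.09 to -1.74). Of 18 interferon response genes 5 were lower (median -0.20), where 5.16% of all genes were, and 15 rose in the other males, where 17.2% of all genes did. The count of lower genes was 1 without the first array labelled atherogenic and 3 without the last labelled chow. Gbp2, a guanylate-binding protein, was at -2.38 (adjusted p = 0.00161).

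Of 21 acute phase genes 2 rose and 6 fell (median -0.18), where 2.61% and 5.16% of all genes did. In the other males 15 rose and 3 fell, where 17.2% and 24.1% of all genes did. The lower count in SM/J males was 3 and 10 without the first and second array labelled atherogenic. Lcn2, lipocalin 2, read 11.49, 9.75 and 11.82 against 5.88, 9.67 and 6.87 (log2 -3.54, SE 0.66, adjusted p = 7.36e-05), where the second arrays of the groups nearly met. Saa3, a serum amyloid A, was at -2.91 (adjusted p = 3.06e-05), while Saa1 (-0.71, adjusted p = 0.539) and Saa2 (-1.28, adjusted p = 0.248), near-identical genes whose probes may share signal, did not pass. Orm3 (-1.18) lost its call without the third array labelled chow (-0.84, adjusted p = 0.131). Hamp, the iron hormone hepcidin, read 10.08, 9.44 and 11.04 against 12.38, 12.48 and 13.07, 5.49-fold higher in the arrays labelled atherogenic (log2 2.46, SE 0.59, adjusted p = 0.00276), against -0.80 in the other males. The antigen presentation genes Cd74 and H2-Ab1 were among the largest falls: Cd74, the invariant chain, read 12.02, 10.54 and 12.33 against 7.65, 9.39 and 8.43 (log2 -3.14, SE 0.39, adjusted p = 4.24e-09), and H2-Ab1 read 10.98, 9.83 and 11.35 against 6.74, 8.31 and 7.0 (log2 -3.37, SE 0.43, adjusted p = 1.15e-08).

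The remaining lists gave smaller counts, to be read beside 2.61% of all genes higher and 5.16% lower in SM/J males and 17.2% and 24.1% in the other males. Of 21 cytochrome P450 and flavin monooxygenase genes 6 rose and 1 fell, against 4 and 12 in the other males, where the 1 fall and the 4 rises were near those shares; Cyp2c38 (1.37) and Cyp2c54 (1.05) rose, as did Cyp2b10 (1.78), whose call was lost without the last array labelled chow (1.37) or the second labelled atherogenic (1.41). Without the last array labelled chow 3 of the list rose. Of 22 oxidative phosphorylation genes 4 rose (median 0.13), where 17 fell in the other males (median -0.10); the count was 1 without the first or last array of either label. Of 16 NRF2 targets 1 rose, Gsta3 (11.34, 11.72 and 11.58 against 13.11, 12.76 and 12.77, a rise of 1.33), and 1 fell, Hmox1 (-1.0, lost without the last array labelled chow, at -0.82, or the first labelled atherogenic, at -0.72). Of 17 ER stress genes 1 rose and 1 fell. Among 22 proliferation genes 0 passed limma's threshold (3 at an unadjusted p under 0.05, median -0.23), where 17 rose in the other males. Of 12 male-biased liver genes 1 rose, and 0 of 13 female-biased, 0 of 11 ribosomal protein and 0 of 4 sex chromosome genes were called by limma (1, 2 and 0 at an unadjusted p under 0.05).

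**Figure D4:**
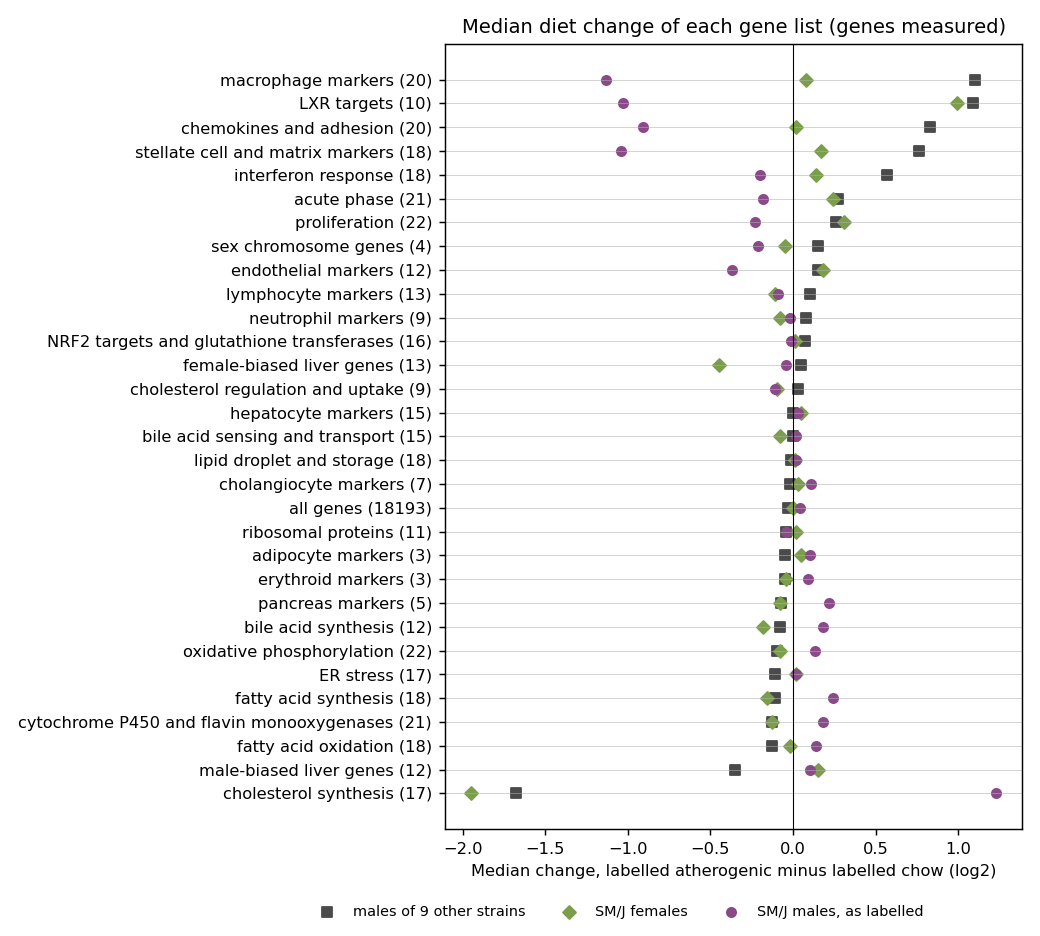
Median log2 change (labelled atherogenic minus labelled chow) of each gene list, with the number of genes measured in brackets, in males of 9 other strains (squares), SM/J females (diamonds) and SM/J males as labelled (circles). The SM/J male circles lie opposite the squares for cholesterol synthesis (1.23 against -1.68), LXR targets (-1.03 against 1.09) and macrophage markers (-1.13 against 1.10).

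A change of equal size and opposite sign in SM/J males and the other males makes the sum of both changes 0. The test of the sum, too, rests on the spread of arrays within groups and not on that between strains. The sum departed from 0 for 27 genes (0.148%, adjusted p under 0.05; 1087 at an unadjusted p under 0.05), 8 above (0.044%) and 19 below (0.104%), and the count ran from 14 to 56 without single arrays, at 14 without the first array labelled chow, 56 without the second, 15 without the last labelled atherogenic and 41 without C57BL/6J. Of these genes 21 were called in SM/J males. Lyz2 was lowered further in the arrays labelled atherogenic than the other males' rise of 2.04 would mirror (sum -2.76, SE 0.33, adjusted p = 5.38e-09). Its level there, 5.99 to 6.93, lay below every other male on chow (8.27 to 10.14). Lyz1, a near-identical copy whose probes may share signal with Lyz2, gave a sum of -2.62. On a Lyz1 probe set, SM/J females stood at least 0.5 log2 units apart from all females of the other strains of the same age. Whether the low lysozyme level in the arrays labelled atherogenic belongs to the strain was not tested.

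H2-Ea, a class II antigen chain, read 11.50, 10.52 and 12.12 in the arrays labelled chow and 7.91, 8.73 and 8.27 in those labelled atherogenic, a log2 change of -3.08. The other males changed by 0.34 on average, between -0.97 and 2.63 by strain, and SM/J females by 0.15. The sum was -2.74 (SE 0.28, limma adjusted p = 1.34e-11). Of the further H2-Ea probe sets, 1 gave -3.58 in SM/J males and 0.67 in the other males. Another gave -0.07 and 0. Cd207, the lectin langerin, gave a sum of -2.05 and Pla2g7, the platelet-activating factor hydrolase, -1.64 (adjusted p = 0.0291). Dhtkd1, a mitochondrial dehydrogenase, read 10.38, 9.57 and 9.50 against 10.29, 7.05 and 6.39, with the first array labelled atherogenic at the level of the other label. Its change was -1.91, against 0.08 in the other males.

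Above 0, Fads1 changed more than a mirror of the other males (sum 1.62, SE 0.19, adjusted p = 2.66e-09), and its level in the arrays labelled chow, 7.90 to 8.61, lay below every other male on either diet (9.37 to 11.79). Moxd1, a monooxygenase-like gene, read 5.49, 4.0 and 4.31 against 5.95, 7.72 and 6.22 (log2 2.03, adjusted p = 1.7e-07), with 0.22 in the other males and -0.02 in SM/J females. Dct, dopachrome tautomerase, read 6.33, 7.74 and 6.42 against 9.71, 8.91 and 8.74 (log2 2.29), against -0.93 and -2.00. Angptl8, a lipase inhibitor raised by feeding, read 6.58, 6.95 and 7.04 against 8.74, 9.28 and 8.24 (log2 1.90), against 0.07 in the other males. Gsta3 gave a sum of 0.90.

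Other genes departed because SM/J males moved little. Mmp12, the macrophage elastase, read 4.93, 4.53 and 5.41 in the arrays labelled chow and 4.37, 4.37 and 4.34 in those labelled atherogenic, a change of -0.60 (adjusted p = 0.36) against 2.79 in the other males (sum 2.20, adjusted p = 0.000374). Gpnmb, a lysosomal glycoprotein of lipid-laden macrophages, read 5.85, 5.39 and 6.53 against 5.60, 5.63 and 5.63, a change of -0.30 (adjusted p = 0.617) against 1.98. SM/J females moved little as well, at 4.28 and 4.39 for Mmp12 and 5.57 and 5.58 for Gpnmb on chow and the atherogenic diet. Sqle (sum -2.18, adjusted p = 0.00111) and Hsd17b7, a sterol reductase (sum -0.88, adjusted p = 0.0361), fell short of the mirror in cholesterol synthesis.

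Several of the largest changes within SM/J males belonged to genes that the lists do not hold. Ubd, an interferon-induced ubiquitin-like modifier, read 9.32, 7.14 and 10.14 against 4.65, 5.40 and 4.71 (log2 -3.94). Clec4e, a pattern receptor of macrophages, read 7.82, 4.67 and 8.86 against 3.68, 3.62 and 3.56 (log2 -3.50), and Clec7a, the beta-glucan receptor, 8.96, 7.64 and 9.47 against 5.79, 7.61 and 6.41 (log2 -2.09). The second array labelled chow was the lowest of its group for all of these and nearly met the second array labelled atherogenic for Clec7a. Calhm6 changed by -2.29, against 1.76 in the other males. Rdh11, a retinol dehydrogenase, rose by 0.93 (adjusted p = 0.038), lost without any 1 array other than the second labelled chow (0.78 to 0.95), against -1.94.

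Within the strain, the labelled change of SM/J males differed from that of SM/J females in 1571 genes (8.64%), 623 higher (3.42%) and 948 lower (5.21%) in males, so 39.7% were higher, or 52.5% with centred arrays. The sum of both changes departed from 0 in 94 genes (0.517%), 12 above (0.066%) and 82 below (0.451%). That count rested on single arrays: it was 295 without the second array labelled chow, 26 without the first and 19 without the third, and 53 and 36 without the first and the last labelled atherogenic. Across genes the male and female changes correlated at r = -0.42 (rho -0.26, n = 18193 genes). The female response itself was narrower, with 265 genes called (1.46%), and 13 of the 17 cholesterol synthesis genes but 4 of the 20 macrophage markers were among them.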

How the data were processed

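Liver RNA of 144 mice was hybridised, 1 array each, to an expression array of 45101 probe sets. The deposited values, in log2 units of intensity, were made by the authors with RMA, per the submitters' processing notes; its version and the arrays normalized together are not given in the sources used here. That the scale is log2 was read from the values, 2.9 to 14.74. RMA forces the distributions of its arrays together, so a shift of most genes in 1 group would not be seen. No counts lie behind such values, and precision rests on the number of arrays.

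Of 34958 probe sets with 1 gene symbol, 34754 were named by gene ID and 1 by accession through RefSeq (GRCm38.p6) and 203 kept the platform's annotation; 932 with several symbols and 9211 with none were not used. Without control probe sets 34945 remained, and for the 9010 of 18193 genes with several the one with the highest mean over 120 arrays was taken.

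Groups are strain, sex and diet as labelled. The 120 arrays of the 10 younger strains entered 1 limma fit (limma 3.58.1, the data.table package of version 1.17.8, R 4.3.3) of 40 cell means with 80 residual degrees of freedom, tested with eBayes and Benjamini-Hochberg adjustment over all genes, threshold 0.05. The contrasts were the labelled diet change in SM/J males, in SM/J females and in the mean of the males of 9 other strains, their differences and sums, and each SM/J male group against references that hold no SM/J male. The labels call the arrays biological replicates and the series' design text calls them replicate animals. Replicate numbers do not pair the arrays by any label.

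The genes named were the 12 largest rises and falls in the other males that ran 1 way in all 9 strains, the 8 largest each way in SM/J males with groups apart, the 6 largest departures each way from a sum of 0, genes called with a common sign, and members of 30 lists (416 of 464 genes measured), by size in the other males or by role. Lpin1, and list members by role, were named after their values were seen. The other list members were not analysed here. The arrays, the lists and the tests were chosen with earlier results of these data known. The steps were run on simulated data, with independent normal values for each gene and a common spread over all arrays. That setting holds no correlation between genes and no arrays of unequal quality, so it does not show how firm the calls are here. Alternatives were a replicate block, an intensity trend, array quality weights, quantile normalization, centring, the mean of a gene's probe sets, brighter genes only, other sets of arrays, a threshold of 0.01 and leaving out each SM/J male array or strain. Fits of the list counts without single arrays and under other scalings, the fit of the other males without the 6 arrays, and the choice of the 258 genes on the other males alone, were added after seeing the data.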

Additional observations from a re-analysis of the deposited data

Results flagged for a closer look

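Every result listed here is a difference between groups that passed the test of the difference itself (limma, Benjamini-Hochberg adjusted p under 0.05). The genes were first picked for large changes in the other males, in SM/J males or in their sum. That choice used the same changes that the difference tests, so a pass is not separate support. Dependence on single arrays was not part of the rule. By the values above, single arrays stood apart or carried the call in SM/J males for some, such as Dhtkd1, Sqle and Orm3. The labelled diet change of SM/J males differed from that of the males of 9 other strains in 4689 genes and from that of SM/J females in 1571.

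Among the sterol genes, the labelled change in SM/J males exceeded that of the other males by 5.24 for Cyp51, 5.16 for Sqle, 4.87 for Fdps, 4.75 for Idi1, 4.17 for Nsdhl and 4.09 for Msmo1 (log2 units throughout). The difference was 3.68 for Dhcr7, 3.37 for Tm7sf2, 2.91 for Hmgcs1, 2.78 for Pmvk and 3.08 for Cyp8b1, the bile acid enzyme. For the exporters and lipid genes it was -3.53 for Abcg5, -3.67 for Abcg1, -3.06 for Lpl and -4.44 for Scd2, and 3.29 for the desaturase Fads1.

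Macrophage and matrix genes differed by -6.85 for Lyz2, -6.29 for Lyz1, -5.66 for Lgals3, -4.77 for Clec7a, -4.97 for Clec4e, -3.39 for Mmp12, -3.21 for Cd5l, -2.28 for Gpnmb, -5.12 for Pla2g7 and -3.92 for Col3a1. Antigen presentation and inflammatory genes differed by -5.09 for H2-Ab1, -4.77 for Cd74, -3.42 for H2-Ea, -3.42 for Cd207, -6.32 for Ubd, -6.72 for Lcn2, -4.05 for Calhm6 and -2.93 for Orm3. The remaining named genes differed by 3.25 for Hamp, 3.22 for Dct, 2.87 for Rdh11, 1.83 for Angptl8, 1.80 for Moxd1 and -1.99 for Dhtkd1. The fit takes the diet labels as deposited, and an exchange of the 2 labels of SM/J males cannot be told apart from a reversed diet change by these values.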

How the results depend on the processing

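The results took the diet labels as deposited, and no alternative exchanged them. Of 242 recomputed counts and values that answer a comparison, 195 kept within the margin set for them and 47 moved. A change of direction could be recorded only for the diet score and r, where it did not occur. For counts it was not scored, and the majority direction of some turned. The higher share of the difference from the other males went from 52.3% to 41.1% at adjusted p under 0.01. That of the male minus female difference went from 39.7% to 52.5% with centring. Array quality weights gave the labelled change of SM/J males 3350 genes (1651 up and 1699 down), the difference from the other males 7070, their sum 213, SM/J females 563, the male minus female difference 2539 and the male and female sum 941; against the references they gave 15.5% of genes for the arrays labelled chow (atherogenic reference) and 8.78% (atherogenic) and 3.23% (chow) for those labelled atherogenic. The 12 SM/J arrays alone gave 910 for males, 148 for females, 1031 for their difference and 3 for their sum. At adjusted p under 0.01 the counts were 782 for SM/J males, 2813 for the difference and 17 for the sum, 151 for females, 857 and 24 for the male and female difference and sum, 1.21% and 8.38% of genes for the arrays labelled chow (atherogenic and chow reference) and 1.21% and 0.671% for those labelled atherogenic. For the other males centring gave 11331 genes and genes above the median 4880. The diet score over 88 genes changed 2-fold was -2.43, and a gap of 0.5 gave 82.4% of strain probe sets. Without single arrays or strains the ranges were 754 to 1372 for SM/J males, 3444 to 4869 for the difference, 14 to 56 for the sum (41 without C57BL/6J), 5853 to 7825 for the other males, 1126 to 1577 and 19 to 295 for the male and female difference and sum (26 without the first array labelled chow, 53 and 36 without the first and the last labelled atherogenic), 0.792% to 3.77% (1.7% without MRL/MpJ-Tnfrsf6lpr/J) and 9.27% to 14.4% for the arrays labelled chow, 1.61% to 2.65% and 0.792% to 1.68% for those labelled atherogenic, -2.03 to -1.73 for the diet score and -0.82 to -0.77 for r. The cause of these moves was not tested. With the replicate number as a block the SM/J male count was 1405, of which 1394 were shared, and the sums were 26 and 82; same-numbered deviations correlated at -0.1, -0.24 and -0.04 in SM/J males and 0.3, 0.4 and 0.05 in SM/J females, and no male array labelled chow correlated best with its own number, so neither sex met the rule for pairing (every correlation over 0.1). Quantile normalization and centring kept the direction of the list medians for cholesterol synthesis, LXR targets, macrophage and matrix markers.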
